A study of Mus musculus with 9 samples.

Results

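The Schlafen family was described in BV2 cells, a mouse microglial line made by immortalisation, across 9 RNA sequencing libraries. Its members were taken by gene symbol from the deposited count table, and the 7 listed genes (Slfn1, Slfn2, Slfn3, Slfn4, Slfn5, Slfn8 and Slfn9) were found among 21951 genes. The family was picked because Slfn5 stood among the largest increases after irradiation, so the values of irradiated against control cells chose it and are given here as a description, without a test. Triol-treated irradiated cells received 10 µM of 5α-androst-3β,5α,6β-triol, a steroid, 30 min ahead of 10 Gy of X-rays. Irradiated cells received the vehicle, 20% hydroxypropyl-β-cyclodextrin, and the same X-ray dose, and control cells received the vehicle alone. Each of the 3 groups held 3 libraries, all from wild-type BV2 cells, so every group is a sample of one immortalised line. No group received triol without X-rays, no vehicle is named for cells that received triol, and the sources used here do not give the interval between irradiation and harvest. The treatment labels of triol replicates 2 and 3 place the last hydroxyl elsewhere than the titles do, so the identity of the compound in them rests on the titles. Nothing in the labels states that replicates were separate cultures, and p-values here measure the spread between libraries, which may be technical.

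Schlafen genes take their name from the German word for sleep, after the halt in growth that the first member imposed on mouse thymocytes. They fall into short members (Slfn1 and Slfn2), members of intermediate length (Slfn3 and Slfn4) and long members that carry a helicase-like domain (Slfn5, Slfn8 and Slfn9), and many of them are induced by type I interferon. The proteins act on RNA: human SLFN11 cleaves transfer RNA, blocks stressed replication forks and makes cells sensitive to DNA damage, and mouse Slfn2 guards transfer RNA and keeps T cells and monocytes quiescent. In macrophages, the lineage nearest to microglia, several mouse members respond to interferon and to Toll-like receptor ligands.

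The 7 genes form one cluster on chromosome 11 of GRCm38, between positions 82951349 and 83215154, a stretch of 263.8 kb. In the order of the chromosome these are Slfn5 (82951349 to 82964840, plus strand), Slfn9 (82978390 to 82991830, minus), Slfn8 (83002158 to 83020810, minus), Slfn2 (83065112 to 83070678, plus), Slfn1 (83116849 to 83122670, plus), Slfn4 (83175186 to 83190216, plus) and Slfn3 (83191330 to 83215154, plus). The bases upstream of the start of 4 members are shown because they differ in a letter pattern of the interferon response. The pattern, searched on both strands, was the core of the interferon-stimulated response element, GAAA followed by any pair of bases and a second GAAA, and capitals mark its matches. The letters come from RefSeq windows on GRCm38.p6, read 5′ to 3′ on the strand of the gene. For Slfn5 the region is chr11:82951852-82951984 on the plus strand. The RefSeq start of Slfn5, 82952102, lies 753 bases inside the gene span given above, so this region is within the annotated gene, and it is cut before an exon of another annotated Slfn5 transcript. For Slfn9 it is chr11:82991831-82992080 on the minus strand, for Slfn8 chr11:83020811-83021060 on the minus strand and for Slfn2 chr11:83064862-83065111 on the plus strand, each the 250 bases ahead of the start.
Slfn5: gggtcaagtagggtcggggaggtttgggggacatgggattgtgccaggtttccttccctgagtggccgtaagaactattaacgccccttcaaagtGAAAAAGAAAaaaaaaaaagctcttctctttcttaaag
Slfn9: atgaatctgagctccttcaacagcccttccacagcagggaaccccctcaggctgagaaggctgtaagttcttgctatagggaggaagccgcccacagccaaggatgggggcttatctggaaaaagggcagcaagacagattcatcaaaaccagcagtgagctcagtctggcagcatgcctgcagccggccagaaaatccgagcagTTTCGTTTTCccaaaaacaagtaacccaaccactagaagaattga
Slfn8: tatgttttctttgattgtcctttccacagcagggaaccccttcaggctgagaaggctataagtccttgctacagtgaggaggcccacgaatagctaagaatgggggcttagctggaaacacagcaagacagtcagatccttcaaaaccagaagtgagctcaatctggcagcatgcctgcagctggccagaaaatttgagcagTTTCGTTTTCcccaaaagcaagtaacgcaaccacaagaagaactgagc
Slfn2: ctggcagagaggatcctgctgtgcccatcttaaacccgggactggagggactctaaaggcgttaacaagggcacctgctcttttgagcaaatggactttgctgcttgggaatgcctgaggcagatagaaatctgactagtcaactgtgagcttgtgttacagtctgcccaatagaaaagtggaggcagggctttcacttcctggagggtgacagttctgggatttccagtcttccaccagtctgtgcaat

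Of the 7 members, 3 had a match within the window from 250 bases before to 50 bases after the start, against 3.44% of all 32851 windows of that length in the RefSeq table. In Slfn5 the match ran from position -155 to -146 relative to the RefSeq start, on the plus strand. In Slfn8 and Slfn9 it lay nearer to the start, at -48 to -39 and at -45 to -36, and in both it stood on the opposite strand, so that the printed strand reads TTTCGTTTTC. The upstream 250 bases of Slfn8 and Slfn9 were 80.2% identical in a global alignment, while every other pair of members gave 45.5% to 53.4%. Slfn1, Slfn2, Slfn3 and Slfn4 had no match to these letters in this window, which says nothing of sites elsewhere. The core of the gamma-interferon activated site, TTCNNNGAA, was found in 0 of the 7 windows and in 8.30% of all windows. Matches describe the letters and are not shown here to be bound.

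Reads of Schlafen genes can fall on a relative. Stretches of 50 bases in the annotated transcripts were compared, and the share of a gene's stretches that occur identically in another gene was 15.6% for Slfn3, 14.6% for Slfn8, 11.5% for Slfn9, 10.8% for Slfn4, 4.27% for Slfn2, 3.37% for Slfn5 and 0.606% for Slfn1. Slfn5 shared 0% with its own family, and its matches lay in 343 genes outside it. Slfn8 and Slfn9 shared stretches with each other, 9.30% of Slfn8 and 6.52% of Slfn9, and with the pseudogene Slfn10-ps. Slfn4 and Slfn3 shared 6.28% of Slfn4 and 7.39% of Slfn3. All shared stretches of Slfn2, 4.27% of that gene, lay in Slfn4. The sources used here give neither read length nor the handling of reads that match several genes. The counts of Slfn8, Slfn9, Slfn3 and Slfn4 are therefore uncertain. A gene's own share does not bound this where a relative has far more reads. In control libraries Slfn2 held 5643 reads in all and Slfn3 1204, against 28 for Slfn4.

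**Figure D1:**
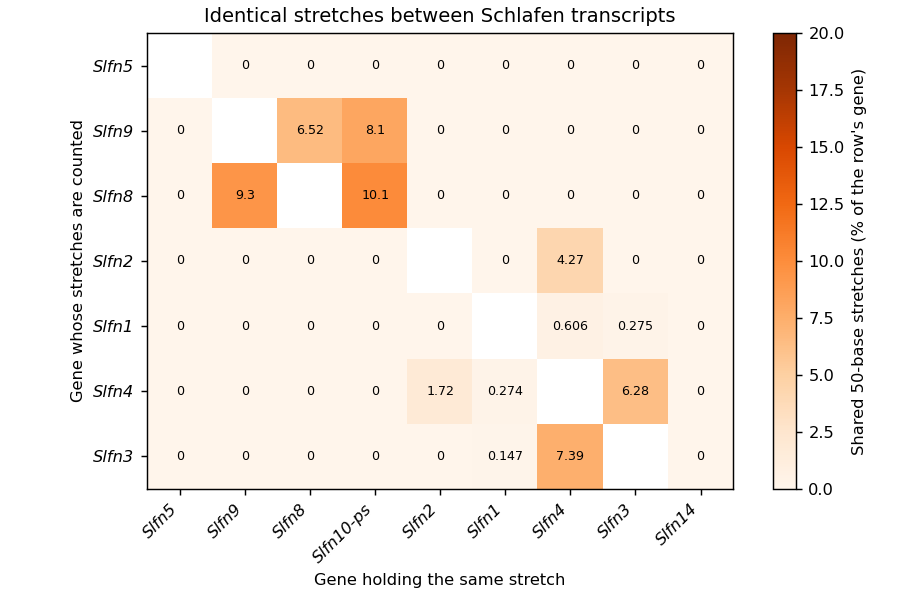
Share of the 50-base stretches of each member (rows) that occur identically in the transcripts of another Schlafen gene (columns), in % of the row's gene. Identical stretches join Slfn8 and Slfn9 with the pseudogene Slfn10-ps, up to 10.1%, Slfn3 with Slfn4, up to 7.39%, and Slfn2 with Slfn4, up to 4.27%. Slfn1 shares up to 0.606% with another member, and no stretches join Slfn5 to the rest.

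Irradiated cells held more of each Schlafen transcript than control cells, from 13.2-fold for Slfn5 to 1.14-fold for Slfn2 among the 6 members with enough reads to fit, and edgeR called none of these 6 different between irradiated cells with and without triol. Levels of a gene are given as CPM, its reads scaled to library size with TMM factors, which compares a gene between libraries.

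Slfn5, a long member that restrains herpesvirus transcription in human cells, had 13.3, 16.8 and 15.1 CPM in triol-treated irradiated cells, 17.7, 15.7 and 11.04 CPM in irradiated cells, and 1.59, 1.09 and 0.717 CPM in control cells. All 6 irradiated libraries stood above all 3 control libraries, and the lowest of them, irradiated replicate 3, was still several times the highest control. The log2 fold change of irradiated over control cells was 3.72 (SE 0.22), a 13.2-fold difference with a 95% interval of 9.54 to 18.2, and it ranked 30 of 11295 tested genes from the top. The 3 control libraries held 22, 19 and 11 reads of Slfn5, so the control level is known less well than the irradiated one. Of the exonic bases of Slfn5, 8.84% overlap the antisense transcript Slfn5os, whose reads cannot be told apart from those of Slfn5 if the counting ignored strand.

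Slfn9 and Slfn8 are neighbouring long members, related to human SLFN11 and SLFN13. Slfn9 had 137, 143 and 127 CPM in triol-treated irradiated cells, 138, 134 and 128.5 CPM in irradiated cells, and 65.0, 58.0 and 62.5 CPM in control cells. Slfn8 had 53.7, 54.0 and 50.4 CPM in triol-treated irradiated cells, 59.9, 48.8 and 48.2 CPM in irradiated cells, and 16.2, 19.4 and 15.3 CPM in control cells. In neither gene did an irradiated library overlap a control library. The log2 fold change of irradiated over control cells was 1.11 (SE 0.05) for Slfn9 and 1.62 (SE 0.08) for Slfn8, and their 95% intervals, 1.02 to 1.21 and 1.45 to 1.79, did not meet.

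The intermediate members differed widely in level. Slfn4, a gene of activated macrophages and of myeloid cells in the inflamed mouse stomach, had 3.18, 3.81 and 3.78 CPM in triol-treated irradiated cells, 3.69, 2.78 and 1.96 CPM in irradiated cells, and 1.01, 0.515 and 0.326 CPM in control cells. With 5 to 14 reads per control library it passed the filter on low counts through the irradiated groups, and its log2 fold change of irradiated over control cells was 2.21 with a wide 95% interval of 1.55 to 2.86. Slfn3, studied for its part in the maturing gut lining of the rat, had 49.98, 49.8 and 47.3 CPM in triol-treated irradiated cells, 49.4, 47.6 and 46.4 CPM in irradiated cells, and 27.2, 26.2 and 24.04 CPM in control cells. Its libraries agreed closely within each group, and the log2 fold change was 0.89 (SE 0.06).

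The short members gave the smallest called difference of the family and the fewest reads. Slfn2 had 146.5, 146.5 and 142.5 CPM in triol-treated irradiated cells, 148, 137 and 129.3 CPM in irradiated cells, and 129.1, 121 and 113 CPM in control cells. The lowest irradiated library lay just above the highest control library, and the log2 fold change was 0.19 (95% interval 0.10 to 0.28), a 1.14-fold difference. Slfn1, the founding member, had 11, 5 and 7 reads in the triol-treated irradiated libraries, 11, 6 and 6 reads in the irradiated libraries, and 0, 2 and 0 reads in the control libraries. It did not pass the filter on low counts and has no fitted value beside the other members. Without that filter edgeR gave it a log2 fold change of irradiated over control cells of 3.39 and DESeq2 gave 3.63. Both values depend on how the 0 counts are handled. The 23 irradiated against 2 control reads give a ratio of 12.5 between summed RPM (reads scaled to the plain library total), with an exact 95% counting interval of 3.09 to 110 that covers counting error only.

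**Figure D2:**
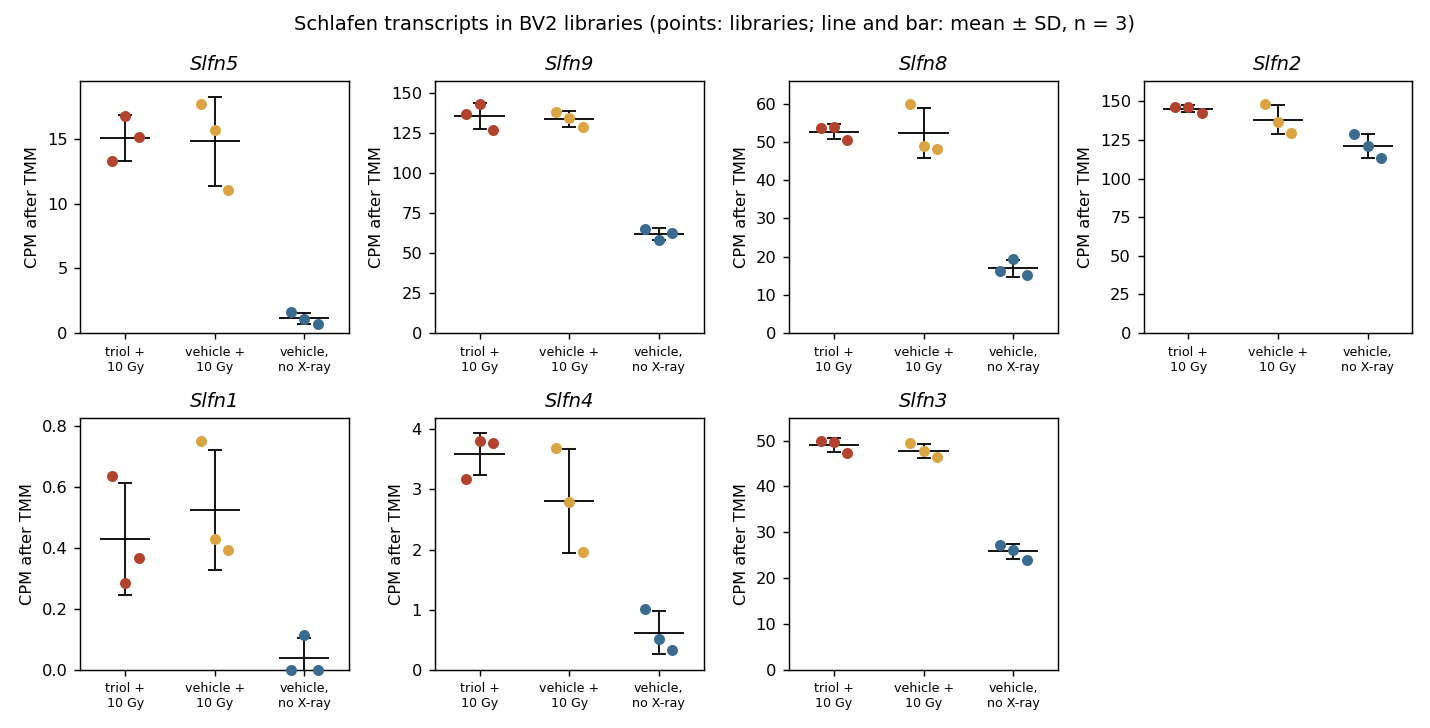
Schlafen transcripts per library in CPM after TMM scaling (vertical axes start at 0 and differ between panels), with the mean and SD of 3 libraries per group. In each of the 7 panels the triol-treated irradiated and the irradiated libraries lie above all control libraries, by 13.2-fold for Slfn5 and by 1.14-fold for Slfn2 in irradiated cells. Of all tested genes, 25.2% had every irradiated library without triol above every control library. The family was chosen on that contrast, and Slfn1 was not tested.

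Among the 6 tested members, 6 were called higher in irradiated than in control cells by edgeR at an adjusted p of 0.05, where 22.1% of all tested genes were. In 7 of 7 members the 2 groups of libraries did not overlap, as in 25.2% of tested genes for the higher direction. Because the family was chosen on this contrast, nothing is read from either count. The median log2 fold change was 1.37 over the 6 tested members and 0.0067 over all tested genes. The members spread over a range of 0.19 to 3.72 on the log2 scale. In ascending order of this change they were Slfn2, Slfn3, Slfn9, Slfn8, Slfn4 and Slfn5. The 95% interval of Slfn4 overlapped that of Slfn8, and the interval of Slfn3 reached 1.02, where that of Slfn9 began, while Slfn2 and Slfn5 lay apart from their neighbours in this order.

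The difference between triol-treated irradiated and control cells shares the controls that chose the family and is likewise a description. There too 6 of the 6 tested members were called higher, where 21.5% of tested genes were. The log2 fold changes were 3.75 for Slfn5, 2.57 for Slfn4, 1.63 for Slfn8, 1.14 for Slfn9, 0.92 for Slfn3 and 0.26 for Slfn2.

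The comparison of triol-treated irradiated with irradiated cells asked whether the steroid altered these transcripts in irradiated cells. The triol libraries had no part in choosing the family, and the irradiated libraries had. No member was called by edgeR, where 0.106% of all tested genes were, and 0 of the 6 had an unadjusted p under 0.05, against 7.66% of tested genes. Limma-voom called 0 of 6, and DESeq2 called 0 of the 2 members to which it gave an adjusted p. For Slfn5 the log2 difference was 0.03 (95% interval -0.25 to 0.30, edgeR adjusted p = 0.98), which leaves room for a level between 0.843 and 1.23 times that of irradiated cells. The more deeply read genes bound it more tightly. The ratio was 1.02 for Slfn9 (95% interval 0.955 to 1.08), 1.01 for Slfn8 (0.911 to 1.11), 1.03 for Slfn3 (0.944 to 1.11) and 1.05 for Slfn2 (0.987 to 1.12). Their edgeR adjusted p-values lay between 0.75 and 0.99.

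Slfn4 had the largest difference between triol-treated irradiated and irradiated cells, with a log2 value of 0.36 (SE 0.22, edgeR adjusted p = 0.75), a ratio of 1.28 with a 95% interval of 0.940 to 1.75. Its libraries held 30 to 72 reads each, and those of the 2 groups overlapped. Slfn1 had 23 reads in each of the 2 groups, a ratio of 0.812 in summed RPM with a 95% counting interval of 0.435 to 1.51. In all 7 members the libraries of these 2 groups overlapped, while 13.2% of tested genes had groups that did not. A summed list of hepatocyte transcripts moved with triol, at 7.39 to 8.41 RPM in triol-treated irradiated, 0.329 to 1.87 RPM in irradiated and 0.283 to 2.09 RPM in control libraries. All 3 tested members of that list of 6 were called higher with triol, where edgeR called 0.106% of tested genes in either direction. They passed the filter on low counts largely through the triol group, so nothing is read from that count. Serpina3k of that list held 19 to 37 reads per library with triol, 0 to 1 in irradiated and 0 to 6 in control libraries. Alb, with the most reads of the list, held 61 to 82 with triol, 2 to 24 in irradiated and 4 to 11 in control libraries. Ttr went less clearly, at 6 to 11 with triol, 0 to 1 in irradiated and 0 to 17 in control libraries. Of the 6, 0 were at 0 throughout, and the part of these transcripts in the values of the Schlafen genes was not tested.

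**Figure D3:**
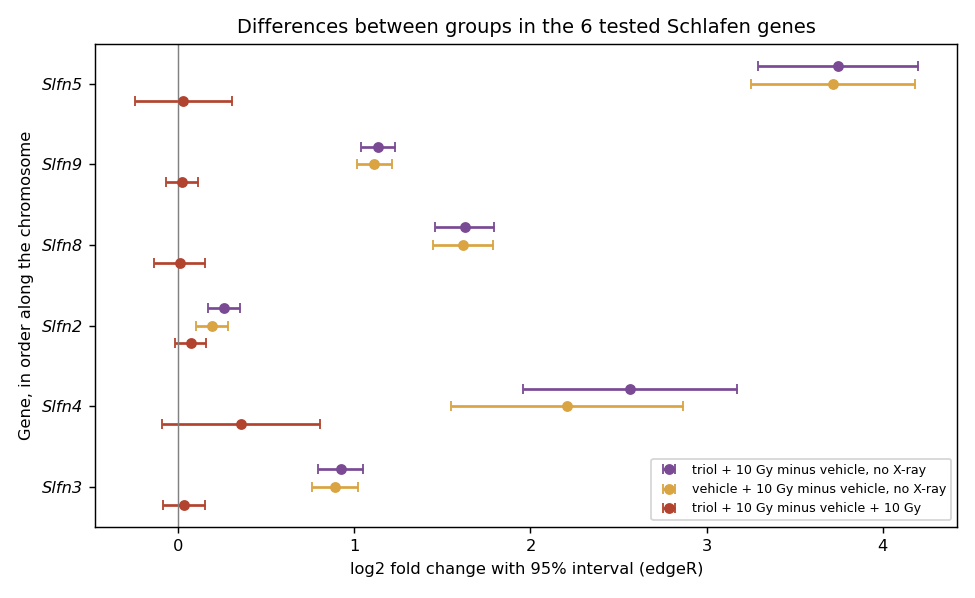
Log2 fold change with its 95% interval for the 6 tested members in order along the chromosome, for triol-treated irradiated minus control, irradiated minus control and triol-treated irradiated minus irradiated cells. The first 2 contrasts reach 3.75 and 3.72 for Slfn5 and lie nearest to 0 for Slfn2, and every interval of the third spans 0.

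Levels of different members were compared as RPKM, which divides CPM by the exonic length in kilobases. Slfn2 was the most abundant member in every library, at 87.2 ± 1.38 RPKM in triol-treated irradiated, 83.1 ± 5.77 in irradiated and 72.8 ± 4.74 in control cells (mean ± SD, n = 3). Slfn9 followed with 22.8 ± 1.37 RPKM in triol-treated irradiated, 22.4 ± 0.818 in irradiated and 10.4 ± 0.596 in control cells. The order Slfn2, Slfn9, Slfn3, Slfn8, Slfn5, Slfn4, Slfn1 held for the mean RPKM in all 3 groups. Neighbours in that order overlapped between libraries for Slfn3 and Slfn8 in irradiated cells (14.0 ± 0.448 and 12.8 ± 1.61 RPKM) and for Slfn5 and Slfn4 in control cells (0.179 ± 0.0691 and 0.156 ± 0.0892 RPKM). In all other places of the order the libraries of neighbouring genes stood apart.

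Summed over the 7 members, the level was 141 ± 3.67 RPKM in triol-treated irradiated, 135.6 ± 9.34 in irradiated and 95.3 ± 5.69 in control cells. The make-up of that sum differed as well. Slfn2 supplied 61.3% to 62.7% of it in triol-treated irradiated, 61.2% to 61.4% in irradiated and 76.0% to 76.9% in control libraries. Slfn8 supplied 9.14% ± 0.120 in triol-treated irradiated, 9.41% ± 0.593 in irradiated and 4.35% ± 0.555 in control libraries (mean ± SD, n = 3). Slfn5, with the largest fold change, made up 1.69% ± 0.191 of the sum in triol-treated irradiated, 1.72% ± 0.298 in irradiated and 0.185% ± 0.0613 in control libraries. The share of a gene depends on the others, so the lower share of Slfn2 in irradiated libraries stands beside a higher level of Slfn2.

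**Figure D4:**
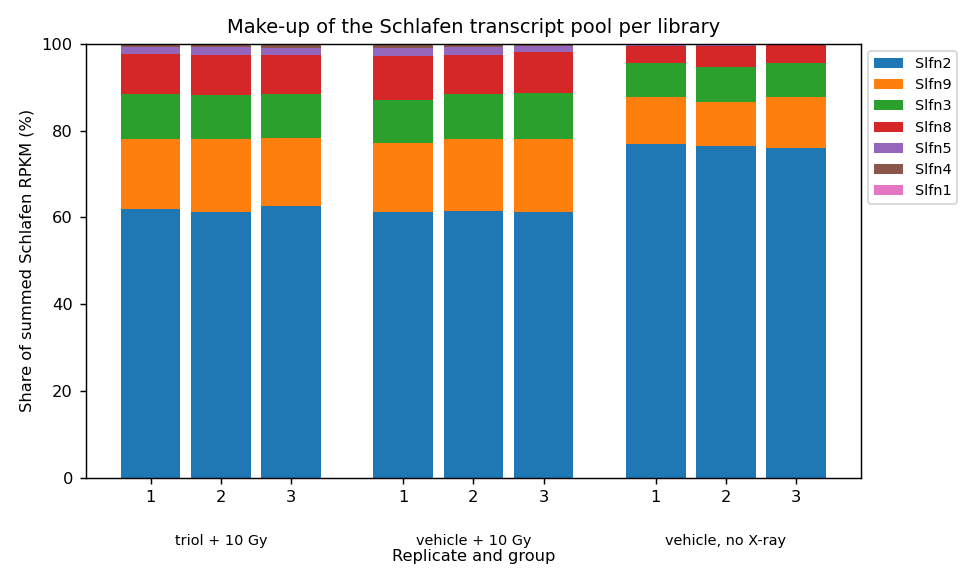
Share of each member in the summed RPKM of the 7 Schlafen genes, 1 bar per library, grouped as triol-treated irradiated, irradiated and control. Slfn2 makes up at most 62.7% in irradiated libraries with or without triol and at least 76.0% in control libraries, and Slfn9, Slfn3 and Slfn8 have larger shares in the irradiated libraries.

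Within irradiated cells the members also varied together between libraries. There, replicate 1 was the highest and replicate 3 the lowest library for 7 of 7 members, a pattern that 18.6% of tested genes had. That pattern was noticed in these libraries. For Slfn1, which was not tested, irradiated replicates 2 and 3 held 6 reads each, so library size alone set which was lowest. In triol-treated irradiated cells the same places were taken in 2 of 7 members, against 17.7% of tested genes, and in control cells in 4 of 7, against 19.1%. Replicate 3 was the lowest library for 4 of 7 members in triol-treated irradiated, 7 of 7 in irradiated and 5 of 7 in control cells, where 34.3%, 34.4% and 35.8% of all tested genes had it lowest. For Slfn5 the irradiated libraries ran from 11.04 to 17.7 CPM, a coefficient of variation of 23.1%, and for Slfn9 from 128.5 to 138 CPM, or 3.65%. Of the 19 tested genes of the interferon pathway list described further on, 7 were highest in replicate 1 and lowest in replicate 3 of the irradiated libraries. The replicate numbers carry no order, and the part of any handling difference was not tested.

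The table held 2 further genes with a Schlafen symbol. Slfn14, a long member known from erythroid cells and platelets, lies beyond Slfn3 on chromosome 11 (83275110 to 83286726) and had 2, 1 and 0 reads in triol-treated irradiated, 0, 4 and 0 in irradiated and 0 in each of the control libraries. Slfnl1, a Schlafen-like gene on chromosome 4, had 1 read in triol-treated irradiated, 1 in irradiated and 0 in control libraries altogether. A count of 0 allows up to 3 reads in a library, or 0.158 to 0.216 RPM, so neither gene can be said to be absent.

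Genes around the cluster moved in both directions. The table held 24 genes within 500 kb of either end of it, and 15 were tested. Of these 6 were higher and 6 lower in irradiated than in control cells by edgeR, where 22.1% of all tested genes were higher and 22.2% lower, and their median log2 fold change was 0.03, against 0.0067 over all tested genes. Genes next to the cluster are named here although picked with their values in view. On the Slfn5 side, Rad51d, a recombinase paralog, had a log2 fold change of -0.27 (SE 0.08) and Nle1, a ribosome assembly factor, of 0.26 (SE 0.07). Nearest to Slfn5 lies Unc45b, a myosin chaperone gene, with 14 reads in triol-treated irradiated, 8 in irradiated and 1 in control libraries, too few to be tested. On the Slfn3 side, Ap2b1, of clathrin coats, had a log2 fold change of -0.15.

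The neighbours with a log2 change of at least 0.5 in size lay on both sides of the cluster. Ccl5, a T cell attractant, averaged 7.92 ± 0.504 CPM in triol-treated irradiated, 7.13 ± 1.11 in irradiated and 1.74 ± 0.783 in control cells (SD, n = 3), with a log2 fold change of irradiated over control cells of 2.03 (edgeR adjusted p = 5.8e-11). Ccl9 and Ccl6 had values of 1.32 and 0.46, and Ccl3 and Ccl4, chosen after their values were seen, of -0.42 and -0.25. Wfdc17, which encodes a small secreted protein with a whey acidic domain, fell by 0.58 (edgeR adjusted p = 2.6e-05). Fndc8, which ends 50.5 kb before the start of Slfn5, had 41, 37 and 14 reads in the triol-treated irradiated, irradiated and control groups and a value of 1.47 (SE 0.49). At these depths it passed the filter on low counts through the irradiated groups, and it is among the 6 called higher. With triol against vehicle in irradiated cells, edgeR called 0 of the 15, with 2 at an unadjusted p under 0.05, against 0.106% and 7.66% of all tested genes.

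**Figure D5:**
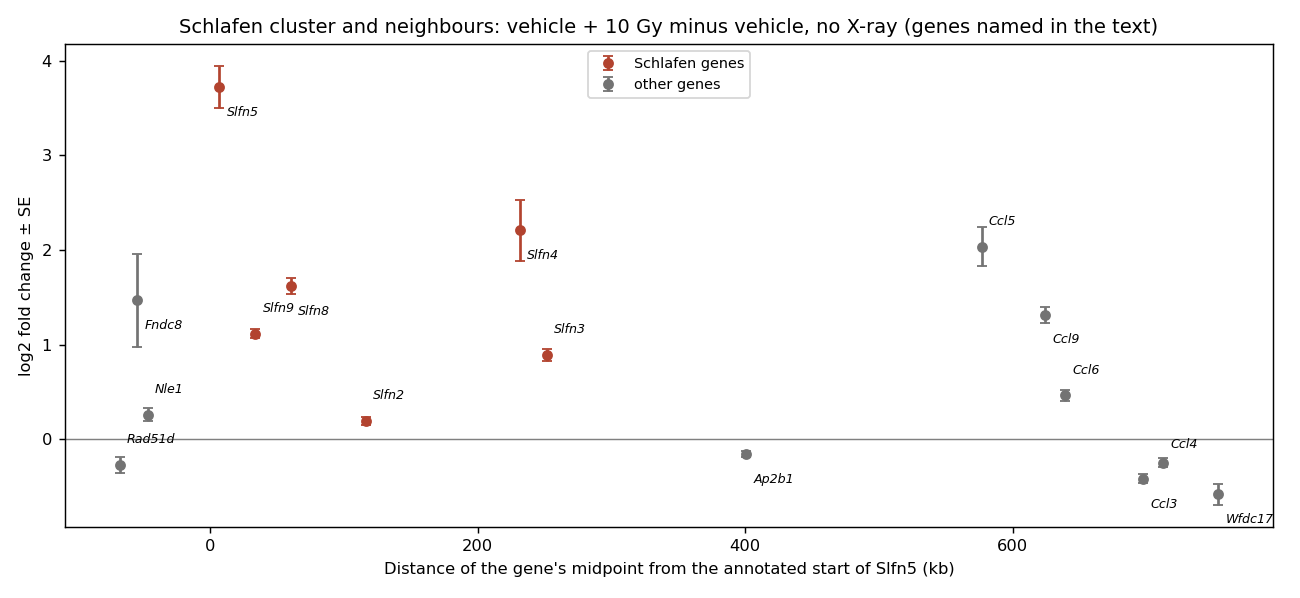
Log2 fold change of irradiated minus control cells with its SE for the tested genes of the Schlafen cluster (red) and the tested genes named above within 500 kb of it (grey), by distance in kb from the annotated start of Slfn5. The 6 Schlafen values run from 0.19 to 3.72, while the genes that flank them on both sides lie on either side of 0 and Ccl5, Fndc8 and Ccl9 reach 2.03, 1.47 and 1.32.

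Type I interferon reaches Schlafen genes through its receptor, receptor-bound kinases and the transcription factors that these set to work. In a list of 24 pathway genes, 19 were tested, and 7 were higher and 5 lower in irradiated than in control cells by edgeR, where 22.1% of all tested genes were higher and 22.2% lower, with a median log2 fold change of 0.07. The ligand gene Ifnb1 had 7, 6 and 7 reads in triol-treated irradiated, 7, 6 and 4 reads in irradiated and 0, 0 and 0 reads in control libraries. Set against a floor of 3 reads over the control group, it was at least 5.89-fold higher in triol-treated irradiated and at least 6.17-fold higher in irradiated cells, taking the 20 and 17 reads there as observed, without their counting error. Ifna1, Ifna2, Ifna4 and Ifng had 0 reads in all 9 libraries. The receptor gene Ifnar1 averaged 111 ± 3.71 CPM in triol-treated irradiated, 113 ± 6.10 in irradiated and 139 ± 6.98 in control cells, and fell by 0.31 on the log2 scale in irradiated cells (edgeR adjusted p = 1.6e-07). Its partner Ifnar2 had a value of -0.07 (adjusted p = 0.29 by edgeR), and the gamma-interferon receptor genes Ifngr1 and Ifngr2 had -0.12 (adjusted p = 0.067) and -0.18 (adjusted p = 5.5e-05).

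Downstream of the receptors, Stat2, Irf7 and Irf9 rose in irradiated cells, each with an edgeR adjusted p of 4.1e-05 or less. Irf7 rose by 1.44 (SE 0.12), Irf9 by 0.56 (SE 0.06) and Stat2 by 0.38 (SE 0.07) on the log2 scale. Usp18, which shuts the receptor off, rose by 1.55 (SE 0.06, edgeR adjusted p = 4.9e-22). Socs1, another inhibitor, had a value of 0.87 (95% interval 0.03 to 1.72, edgeR adjusted p = 0.088) at 26 to 45 reads per group. At these depths Socs1 passed the filter on low counts through the irradiated groups. Of the other inhibitors listed, Socs3 fell by 0.40 (edgeR adjusted p = 0.00015), Ptpn6 fell by 0.32 (edgeR adjusted p = 8.2e-11) and Pias1 had a value of 0.05. Between triol-treated irradiated and irradiated cells edgeR called 0 of the 19, against 0.106% of all tested genes, and 3 had an unadjusted p under 0.05, against 7.66%. The median was -0.00395. Those 3 went in both directions. Stat2 had a log2 difference of 0.18 (95% interval 0.04 to 0.32, edgeR adjusted p = 0.46). Socs3 had 0.20 (0.02 to 0.37, edgeR adjusted p = 0.59) and Irf3 -0.17 (-0.33 to -0.01, edgeR adjusted p = 0.63).

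A second list held 15 genes that work on human SLFN11 and mouse Slfn2 connects with Schlafen proteins, all of them tested. In irradiated against control cells edgeR called 8 higher and 1 lower, against 22.1% and 22.2% of all tested genes. Their median log2 fold change was 0.13, and none reached 0.5 in size in any contrast, so those named were picked with their values in view. The higher ones included Chek1, a checkpoint kinase of the replication stress response, at 0.35 (SE 0.07), and Atm, a kinase whose human protein falls when SLFN11 depletes transfer RNA, at 0.28 (SE 0.04). Genes of the single-strand binding complex RPA, which recruits SLFN11 to forks in human cells, had values of 0.13 (Rpa1), 0.27 (Rpa2) and 0.05 (Rpa3, adjusted p = 0.77 by edgeR). The gene for angiogenin, Ang, whose cleavage of transfer RNA Slfn2 blocks, had 0.49 (SE 0.20, edgeR adjusted p = 0.048), and it has close paralogs in the mouse that could share its reads. Its inhibitor Rnh1 fell by 0.33 (edgeR adjusted p = 2.4e-10). With triol against vehicle in irradiated cells edgeR called 0 of the 15, with 1 at an unadjusted p under 0.05, where these shares were 0.106% and 7.66% of all tested genes.

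For each tested member the 3 most similar genes outside the family were taken by Pearson correlation of log2 CPM over the 9 libraries, as a description without a p. Slfn5 was closest to Helz2 (r = 0.9965), Rtp4 (0.9965) and Oasl1 (0.9962), and Slfn8 to Xaf1 (0.998), Isg15 (0.998) and Trim30a (0.9973). Slfn9 was closest to Cmpk2 (0.9984), Cd80 (0.9978) and Mx1 (0.9976), and Slfn3 to Usp18 (0.999), Oasl1 (0.9985) and Parp14 (0.9984). Slfn4 was closest to Pla1a (0.9954), Eqtn (0.9917) and H2-T23 (0.9908). Slfn2 stood apart, with Fabp3 (0.9694), Spa17 (0.9693) and Surf6 (0.969) nearest. The split of 6 irradiated from 3 control libraries sets most of these values, and 389 other tested genes reached 0.95 with Slfn5, 436 with Slfn9 and 15 with Slfn2. Within the family, r was 0.9948 for Slfn3 with Slfn5 and 0.8585 for Slfn2 with Slfn9.

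The libraries held 13879062 to 18944051 counts, with 17230866 to 18944051 in triol-treated irradiated, 13879062 to 15192203 in irradiated and 14118475 to 17705424 in control cells. Markers of microglia and macrophages were present as the label says, with 10 of 11 tested and a summed level of 2120 to 2154 RPM in triol-treated irradiated, 2111 to 2184 in irradiated and 2687 to 2816 in control libraries. Of these 10, edgeR called 9 lower in irradiated than in control cells, against 22.2% of all tested genes, and their part in the Schlafen values was not tested. The complement gene C1qa, at 0 to 6 reads per library, was the marker of the 11 that was not tested. In bulk RNA, fewer cells of a type and less RNA per cell cannot be told apart. Because Slfn1 and Slfn2 are known from T cells, T cell markers were summed, at 3.54 to 4.24 RPM in triol-treated irradiated, 3.45 to 4.40 in irradiated and 2.64 to 3.19 in control libraries. Of that list of 7, Cd3e was at 0 in every library, Cd3d and Cd3g reached at most 1 read, and Lck, with 29 to 54 reads, made up most of the sum. B cell, neuron, astrocyte and fibroblast lists summed to at most 3.02 RPM in any library, and the oligodendrocyte list to 5.20 to 8.08 RPM. The neuron, astrocyte and fibroblast sums were higher in both irradiated groups than in control cells, at 1.23 to 3.02, 1.51 to 2.09 and 0.527 to 1.80 RPM against 0.0643 to 0.678, 0.321 to 0.850 and 0 to 0.113 RPM. Tubb3 made up most of the neuron sum in irradiated libraries without triol, at 16 to 30 reads against 0 to 2 in control libraries. Snap25, Syt1 and Rbfox3 of that list held 0 reads in each of those irradiated libraries, against 1 to 5, 0 to 3 and 0 to 1 in control libraries. Map2 held 0 to 2 against 0 to 1. Of 5 neuron, 4 astrocyte and 4 fibroblast markers, 1, 1 and 0 had enough reads to be tested, and the astrocyte channel gene Aqp4 was at 0 in every library. Their part in the Schlafen values was not tested.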

How the data were processed

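The 9 BV2 libraries were made from Trizol-extracted total RNA with a NEBNext Ultra RNA kit, per the labels' protocols. The authors deposited raw whole-number counts per gene. As build the submitters' processing notes name GRCm38, and as tools STAR 2.7.1a, fastp 0.18.0, FastQC and featureCounts (Subread 1.6.3), without their settings. Annotation release, strand setting and multi-mapping rule: not given in the sources used here.

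Every one of the 21951 identifiers matched GENCODE M21, which gave coordinates and merged exonic lengths. filterByExpr kept 11295 genes. The 3 contrasts were tested with edgeR 4.0.16 (R 4.3.3), in 1 quasi-likelihood fit with TMM and robust dispersion, on all libraries (6 residual degrees of freedom), two-sided, with Benjamini-Hochberg adjustment and a threshold of 0.05. The fit was also run on simulated counts, drawn with the spread that edgeR estimated from these libraries. Such counts follow the model of the fit, so departures of the real counts from it were not tested. SE is the log2 fold change over the root of F, and intervals use the same SE. CPM and RPKM use the TMM-scaled library size. Replicate pairs within a group differed beyond counting noise (chi-square per degree of freedom 2.00 to 3.01). The members, lists, markers and motifs were chosen with earlier results of these data known, and genes were named as all members, fixed pathway genes, neighbours and partners with an absolute log2 change of at least 0.5, and the 3 closest genes by correlation. Other genes named were chosen after their values were seen. Alternatives were DESeq2 1.42.0, limma-voom (limma 3.58.1), other scalings, no filter, fits of 2 groups, a replicate block and leaving out each library. Some genes are not reported here.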

Additional observations from a re-analysis of the deposited data

How the results depend on the processing

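The contrasts with control cells hold the libraries that chose the family, so their values are given as a description. In irradiated against control cells Slfn5 ranged from 3.48 to 4.0, Slfn4 from 1.91 to 2.69 and Slfn2 from 0.13 to 0.24 on the log2 scale. In triol-treated irradiated against irradiated cells 0 members were called under the 13 alternatives, of which DESeq2 gave an adjusted p to 2 members. The sign turned there without irradiated replicate 2 (Slfn8 -0.04), without irradiated replicate 3 (Slfn5 -0.15, Slfn9 -0.0063, Slfn8 -0.05), without triol replicate 1 (Slfn8 -0.0094) and without triol replicate 2 (Slfn5 -0.06, Slfn9 -0.02, Slfn8 -0.01), and over the libraries left out in turn the values spanned -0.15 to 0.18 (Slfn5), -0.0191 to 0.0647 (Slfn9) and -0.0491 to 0.11 (Slfn8). Slfn4 spanned 0.15 without irradiated replicate 3 to 0.60 without irradiated replicate 1. Over all genes, 12 were called in that contrast. The number was 20 with DESeq2, 36 with no filter on low counts, 22 with 2 groups fitted, 7 without irradiated replicate 1, 2 or 3 or triol replicate 1, 6 without triol replicate 2 and 9 without triol replicate 3, and the cause was not tested. Over all tested genes, same-numbered libraries did not deviate together (r -0.0522 to 0.0442, best with their own number in 4 of 9 pairings), so the numbers are not taken as pairs, and the replicate block called 22. The order of members by RPKM held with the longest transcript as length and with plain library totals. Depth limits Slfn1, at most 11 reads per library, and Slfn4.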
